A study of Mus musculus with 3 samples.

Results

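Gene expression in the utero-tubular junction was compared between CD-1 female mice mated with normal males and females mated with vasectomized males. All females were adults in estrus. RNA of 10 females was pooled for each group and hybridised to 1 single-colour Agilent array, so the comparison rests on 2 of the 3 arrays of the series and on 1 pool a side. The third array held a pool of 10 females in estrus that had not mated, and it is used here only to show which mated array departed from the unmated level. How long after mating the tissue was taken is not stated in the labels. All probes that were not controls entered the comparison. Genes are named by fixed ranks of their ratios or as members of gene lists, and later examples were picked after their values were seen. With 1 array a group there is no replicate, no error between animals and no test: the values describe 3 pools.

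The utero-tubular junction is the muscular, folded gate through which sperm leave the uterus and enter the oviduct. A vasectomized male deposits seminal plasma, the fluid of the accessory glands, but no sperm from the testis, whereas a normal male deposits both. In mice, mating is known to be followed by an inflammatory reaction of the uterus in which neutrophils cross the epithelium. The epithelium of the junction holds secretory and ciliated cells, over stroma, vessels and smooth muscle. Of the markers that define these cells and are on the array, 6 of 6 for ciliated cells, 4 of 4 for oviduct secretory cells and 5 of 5 for smooth muscle were well above background on each of the 3 arrays.

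Signals are given as levels, on which the 75th percentile of each array is 100, in the order not mated, vasectomized-mated and normal-mated unless named. Ratios are log2 values of the normal-mated over the vasectomized-mated level, so a positive ratio is higher after mating with a normal male. A gene was counted as higher or lower at 2-fold, and its value is that of its brightest probe. The range of ratios over the probes of a gene is given where another probe changes the call, and for other genes in part. A gene well above background on only 1 of the mated arrays has a bound, written "at least", and a ratio of 0.00 at the end of a range marks a probe whose bound gave no fold. Levels of one gene are compared between arrays and not with those of another gene. Summed levels of marker genes are totals of probe signal in which bright probes weigh most, so single markers are given beside them. Fewer cells of a type and less RNA per cell cannot be told apart in pooled tissue.

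The vasectomized-mated array stood apart from the other arrays in several measures. Its 75th percentile signal was 295, while that of the not mated array was 874 and that of the normal-mated array 708. Of 9 quality measures in the file headers, 2 were out of range on it, the slope of the spike-in dilution series and the detection limit, and 0 on the others. The spike-in probes lay 5.39 above the 75th percentile on the log2 scale on this array, against 2.69 and 3.21. The share of spots well above background was 68.0%, 65.9% and 70.7% on the not mated, vasectomized-mated and normal-mated arrays. Of 6855 genes with 2 or more probes, 51.7% had probes over 2-fold apart in the ratio of both mated arrays. In 400 of these genes the probes were called in opposite directions. For the ratio of the normal-mated to the not mated array the share was 15.2%, over the genes with 2 or more probes in that comparison.

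The position of a probe along the transcript moved with the ratio. Of 3586 genes with probes 100 to 10000 bases apart, the probe nearest the 3′ end was at least 2-fold lower than the one nearest the 5′ end in 31.5% and at least 2-fold higher in 11.3%, with a median difference of -0.43 in the log2 ratio. For the normal-mated over the not mated array the same shares were 3.99% and 2.54%, with a median of -0.03, and for the vasectomized-mated over the not mated array 14.97% and 30.8%, with a median of 0.38. These measures touch every ratio that follows, and their part in each result was not tested. Genes whose probes agree are given first because they depend less on 1 probe. Probes of a gene measure the same RNA pool on the same array and can lie close together, such as 344 bases apart in Abcc9. Their agreement therefore does not set these measures aside.

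**Figure D1:**
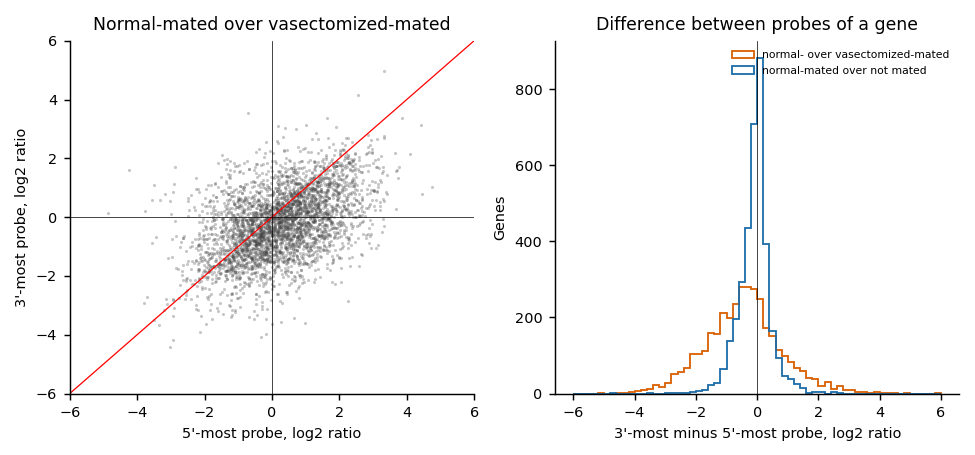
Left, log2 ratio of the normal-mated over the vasectomized-mated array at the 3′-most probe against the 5′-most probe for 3586 genes (1 point a gene, red line of equality). Right, number of genes by the difference between these probes, for that ratio and for the normal-mated over the not mated array. The first distribution is wider and its median is -0.43, while the median of the second is -0.03.

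Of 19853 genes compared, 2791 (14.1%) were at least 2-fold higher after mating with a normal male, 5313 (26.8%) were lower by 2-fold or more, and 11749 differed by less. The median log2 ratio of all genes was -0.20, with quartiles at -1.07 and 0.49. The genes called included 211 bounds among the higher and 563 among the lower. Among the 6855 genes with several probes, every probe was at least 2-fold higher in 446 (6.51%) and at least 2-fold lower in 555 (8.1%). The split between directions depended on the scaling: 34.4% of genes called were higher with the percentile scaling, 42.8% with quantile normalization and 24.8% with normexp background correction. Without a filter on dim probes 22.7% of genes called were higher. Scaling to the spike-in probes moved the median of all genes by 2.07, and 98.4% of genes called were then higher. Every direction given here is therefore relative to the bulk of genes on the arrays. The shift of the spike-in scaling is the same for each gene well above background on both mated arrays, but not for every bound.

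The not mated level, read on the brightest probe unless every probe is named, showed which pool stood apart. Among the 2791 genes higher after mating with a normal male, the not mated level was within 2-fold of the normal-mated level only in 1630 (58.4%) and of the vasectomized-mated level only in 448 (16.1%). Among the 5313 lower genes these numbers were 3021 (56.9%) and 804 (15.1%). In most genes called in either direction it was thus the vasectomized-mated array that differed from both others. A smaller set of genes had normal-mated values apart from 2 similar arrays: with every probe in that position, there were 44 genes higher and 47 genes lower. In a further 231 higher and 430 lower genes both mated pools lay more than 2-fold on the same side of the not mated pool, and the mated pools differed in extent.

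**Figure D2:**
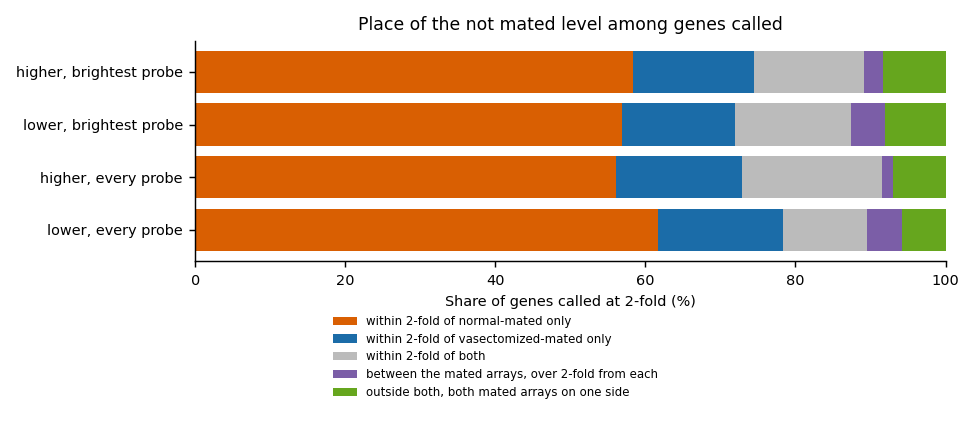
Share of genes called at 2-fold (percent, horizontal) by where the not mated level lay, for genes called on the brightest probe and for genes with every probe called, in each direction. The not mated level was within 2-fold of the normal-mated level only in 58.4% of higher and 56.9% of lower genes called on the brightest probe.

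Genes with every probe higher after mating with a normal male included Oas3, Qsox1, Sec1 and Muc1 among those with the highest ratios. Oas3, an interferon-induced enzyme that makes 2-5A from ATP in response to double-stranded RNA, had levels of 4.39, 5.75 and 103, 17.8-fold higher on the normal-mated than on the vasectomized-mated array (log2 ratio 4.16, probes 2.57 to 4.16, brightest probe at chr5:119987575-119987634 in build mm7). Only the normal-mated pool was high, and both other pools were alike. Qsox1, which forms disulphide bonds in secreted proteins, stood at 77.2, 62.3 and 647 (3.38, probes 3.38 to 3.87, chr1:155743191-155743250). The membrane mucin gene Muc1 stood at 38.5, 30.8 and 269.9 (3.13, probes 3.13 to 4.42, chr3:89357590-89357747). The same order, with normal-mated alone high on the brightest probe, held for Sec1, a fucosyltransferase gene (4.70, 5.03 and 45.7), and for Slc44a4, a choline transporter-like gene (179, 97.9 and 784). In Qsox1, Muc1, Sec1 and Slc44a4 another probe placed the unmated level differently. The gap junction gene Gjb2 had levels of 198, 224 and 932 (ratio 2.06, probes 2.06 to 2.30) and the retinoic acid-induced gene Gprc5a 176, 118 and 492 (ratio 2.06, probes 2.06 to 2.74). These last examples lie outside the rule for the leading 15 genes.

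Other leading genes with every probe higher were at their unmated level after normal mating and low on the vasectomized-mated array. Eef2, the ribosomal translocation factor, had levels of 6676, 925 and 4787 (2.37 over 3 probes from 2.37 to 3.06). Ogdh, a subunit of a citric acid cycle enzyme complex, stood at 127, 12.1 and 81.6, the chromatin remodelling gene Mta3 at 432, 51.6 and 371 and Vars, a transfer RNA synthetase, at 145, 19.1 and 119. The vasectomized-mated pool was the lowest in each, while not mated and normal-mated lay within 2-fold of each other. The same place of the unmated level held for Slc35a4, the urothelial surface gene Upk1a (264, 70.7 and 431) and Sfn, 14-3-3 sigma of epithelia (864, 279 and 1313). Card10, Faah and Cyp2b10 had an unmated level between the mated pools, for example 9.61, 3.95 and 39.3 for Cyp2b10, a xenobiotic-metabolising cytochrome (3.31). In Sfn and Cyp2b10 this place held on the brightest probe and not on every probe.

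Genes with every probe lower after mating with a normal male were led by a steroid-synthesis enzyme. Cyp11a1, which cleaves the side chain of cholesterol in the first step of steroid synthesis, had levels of 0.866, 224 and 7.90, of which the first was not well above background. It was 28.3-fold lower on the normal-mated than on the vasectomized-mated array (-4.82, probes -3.83 to -4.82). Jchain, the joining chain of secreted antibodies, stood at 233, 1785 and 83.8 (-4.41, probes -3.01 to -4.41), with the vasectomized-mated pool high and the normal-mated pool below the unmated one. Ifi27l2a, an interferon-responsive gene, was above the unmated level in both mated pools (846, 33356 and 4854) and higher in the vasectomized-mated one (-2.78).

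Most of the other leading lower genes were within 2-fold between the not mated and normal-mated pools on the brightest probe. They were high on the vasectomized-mated array. Susd3, a membrane protein gene, stood at 31.6, 703 and 38.8 (-4.18, probes -2.95 to -4.18, chr13:48714819-48714878). Arhgap30, a GTPase-activating gene, stood at 31.4, 293 and 21.5, Tmem256 at 547, 11440.0 and 1001 and Bmper, which binds bone morphogenetic proteins, at 45.7, 408 and 46.2. Insc, Smarca1, Colgalt2, Rgs18, Abcc9 and Sun2 shared that place of the unmated level, with ratios from -3.94 for Insc to -2.80 for Sun2. Smarca1 (58.6, 380 and 29.3) and Sun2 (1327, 4638 and 666) were only just within the 2-fold limit. In Insc, Smarca1 and Sun2 another probe placed the unmated level differently. Catsperz, first described in sperm, stood at 90.0, 245 and 29.0, so its unmated level lay between the mated pools. Its level was lowest in the pool mated with normal males. Ptgfr, the prostaglandin F receptor, had the same order (19.3, 59.2 and 7.80, ratio -2.92).

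**Figure D3:**
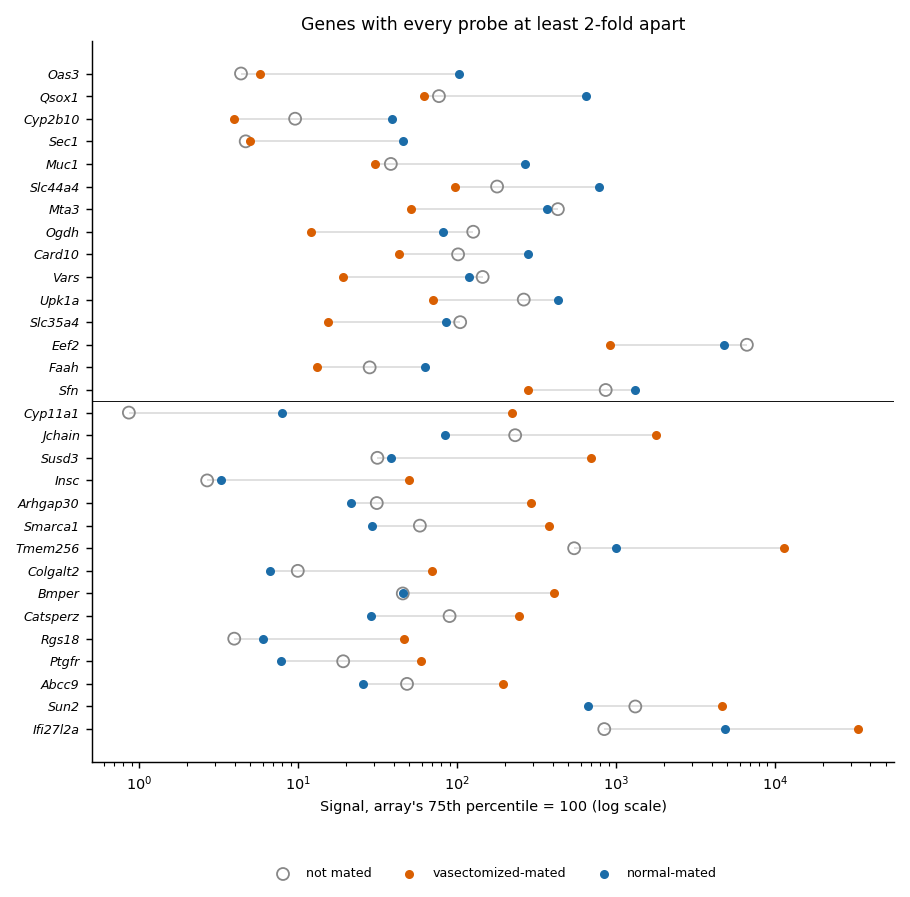
Levels (75th percentile of each array = 100, log axis) of the 15 genes a direction whose probes were all at least 2-fold apart by the widest margin, on the not mated (open circles), vasectomized-mated (orange) and normal-mated (blue) arrays. Genes above the line were higher on the normal-mated array and genes below it lower, relative to the bulk of genes. In Oas3, Qsox1, Sec1 and Muc1 the blue point stands apart, and in Eef2, Susd3 and Bmper the orange one. Points are brightest probes, and in some genes, such as Qsox1, Sec1 and Muc1, another probe placed the unmated level differently.

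The normal-mated pool alone was apart at every probe in 44 higher genes. They included the interferon-induced Irgm1, an immunity GTPase gene (203, 258 and 653, probes 1.34 to 2.40), Epsti1 (75.9, 117 and 339) and Unc93b1, which carries nucleic acid-sensing toll-like receptors to endosomes (362, 342 and 966). The ciliated epithelium list had 1 gene in this set, the axonemal Tekt1 (513, 957 and 1959.6). Its vasectomized-mated level was within the 2-fold limit but 1.87-fold above the unmated one. Outside the list, the set held Dnaaf1, a dynein arm assembly factor (65.5, 45.1 and 287), Wdr63 (36.4, 36.8 and 159.7), Ak7 (365, 304 and 1112) and Nme5 (104.6, 97.7 and 299.6). Over the whole ciliated list 7 of 21 genes were higher and 3 lower, Ccdc39 among the lower. The list of oviduct secretory epithelium had 1 gene in it, the keratin gene Krt8 (10792, 9371 and 21778, probes 1.15 to 1.22). Genes of this set other than Oas3 were picked as examples after their values were seen.

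The normal-mated pool alone was low at every probe in 47 genes, of which 2 belonged to the stroma list, Pdgfra and Thy1, and 1 to the smooth muscle list, Myocd. The platelet-derived growth factor receptor Pdgfra stood at 231, 177 and 60.3 (probes -1.51 to -1.55). The surface marker Thy1 stood at 1473, 1457 and 588, the chemokine Cxcl12 at 587, 349 and 99.4 and the growth factor Igf2 at 95.3, 55.8 and 20.0. Myocd, the co-activator that drives the smooth muscle programme, had levels of 84.5, 146 and 14.0 (-3.38, probes -1.21 to -3.38). The pericyte gene Rgs5 (331, 179 and 46.7), the endothelin receptor Ednra (311, 464 and 148) and the relaxin receptor Rxfp1 (296, 344 and 88.6) were also lowest after normal mating. So was Txk, a kinase of lymphocytes (18.8, 36.9 and 5.80). Genes of this set outside the lists were picked after their values were seen.

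Counts in the gene lists that follow are read against the 14.1% of all genes that were higher and the 26.8% that were lower. The number lower was near that background in NF-kB genes (6 of 25), endothelium (5 of 18), oxidative phosphorylation (7 of 23), steroid receptors (4 of 13) and neutrophil markers (4 of 20). It was also near it in immediate early genes (5 of 23), adipocyte (3 of 13), skeletal muscle and nerve (3 of 14) and B and plasma cells (3 of 9). The number higher was near background in lists such as cytokines (4 of 26), prostaglandins (3 of 23) and progesterone-responsive genes (3 of 22). So it was in immediate early genes (4 of 23), cell cycle (5 of 30) and steroid-producing cells (3 of 19). For these counts the named members stand for themselves only.

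Interferon-stimulated genes are switched on when interferon receptors activate transcription factors that bind the interferon-stimulated response element of their promoters. Among 30 measured genes, 12 were 2-fold or more higher after mating with a normal male and 4 at least 2-fold lower, with a median ratio of 0.77 beside -0.20 over all genes. Of 30 genes compared with the unmated pool, 22 were at least 2-fold above it in both mated pools. The median against not mated was 2.59 for normal and 1.77 for vasectomized mating, and these comparisons share the not mated array. The genes with an excess after normal mating included effectors. Oasl1 stood at 21.3, 82.3 and 739.5 (1 probe, 3.17), Oasl2 at 346, 339 and 1908, Ifit1, which binds foreign RNA ends, at 47.9, 151 and 594 and Usp18, which removes Isg15 from proteins, at 114, 261 and 847. Oasl2 was at the unmated level in the vasectomized-mated pool, whereas Oasl1, Ifit1 and Usp18 were already above it there. The nucleic acid sensor Zbp1 (41.1, 473 and 1417) and the transcription factor Irf7 (47.7, 215 and 610.0) were intermediate in the same way. The double-stranded RNA sensor Ifih1 (86.1, 709 and 252, probes -1.495 to 0.00) and Mx2 (70.1, 1133 and 414) went the other way, with the vasectomized-mated pool highest on the brightest probe.

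The promoters of these genes are shown because these genes are known for a shared response element. Those printed belong to 3 genes that were higher and 1 that was lower. The letters GAAANNGAAA, on either strand, were searched in the RefSeq promoters of GRCm38.p6, which run from 250 bases before to 50 bases after the start of a gene. Of 22 measured interferon-stimulated genes with a promoter in the table, 14 held the letters, against 3.99% of 27025 genes with a promoter there. They were found in 5 of 8 genes that were at least 2-fold higher, in 8 of 13 within 2-fold and in the 1 lower gene that was matched, Ifih1. Capitals mark each match, as its reverse complement where it is on the other strand, and overlapping matches run together.
Oas3 (chr5:120777610-120777909, minus strand): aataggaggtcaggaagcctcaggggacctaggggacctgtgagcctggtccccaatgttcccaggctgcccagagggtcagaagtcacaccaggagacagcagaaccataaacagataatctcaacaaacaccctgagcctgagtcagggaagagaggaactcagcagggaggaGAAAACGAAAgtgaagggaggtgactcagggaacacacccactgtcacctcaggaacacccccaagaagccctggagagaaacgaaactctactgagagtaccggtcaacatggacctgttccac
Ifit1 (chr19:34640639-34640938, plus strand): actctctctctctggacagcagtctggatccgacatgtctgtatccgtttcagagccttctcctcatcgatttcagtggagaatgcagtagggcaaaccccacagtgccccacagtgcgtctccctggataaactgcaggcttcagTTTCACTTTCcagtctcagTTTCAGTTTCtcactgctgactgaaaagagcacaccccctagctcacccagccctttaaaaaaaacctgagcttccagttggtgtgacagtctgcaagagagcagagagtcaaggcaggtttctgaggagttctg
Irgm1 (chr11:48871371-48871670, minus strand): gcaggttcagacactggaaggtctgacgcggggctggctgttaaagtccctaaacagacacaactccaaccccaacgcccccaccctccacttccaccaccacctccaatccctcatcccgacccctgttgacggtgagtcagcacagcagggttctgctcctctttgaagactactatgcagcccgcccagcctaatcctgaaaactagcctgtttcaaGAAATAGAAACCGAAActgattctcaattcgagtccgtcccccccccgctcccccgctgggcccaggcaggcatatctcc
Ifih1 (chr2:62646206-62646505, minus strand): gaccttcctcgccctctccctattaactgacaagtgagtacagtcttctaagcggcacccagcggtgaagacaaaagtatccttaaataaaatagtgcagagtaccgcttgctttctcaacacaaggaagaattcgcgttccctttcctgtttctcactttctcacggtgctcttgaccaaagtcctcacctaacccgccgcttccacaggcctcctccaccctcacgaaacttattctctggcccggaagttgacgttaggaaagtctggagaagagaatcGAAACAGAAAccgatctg
Oas3, Ifit1 and Irgm1 had log2 ratios of 4.16, 1.97 and 1.34, and Ifih1 one of -1.495 on its brightest probe. A match is a run of letters and not a measured binding site. The letters GGGANNTTCC of the NF-kB site were in the promoters of 2 of 18 matched genes of the NF-kB list, Nfkbia and Nfkb2, against 1.63% of all genes. The sterol regulatory letters TCACNCCAC were in 1 of 12 matched cholesterol synthesis genes, Hmgcs1, against 1.44%.

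Inflammatory cytokines and chemokines, which recruit and activate leukocytes, were compared with the unmated pool for 25 genes, of which 19 were at least 2-fold above it in both mated pools. In the normal-mated pool 11 of the 26 measured genes were lower at the 2-fold threshold and 4 higher (median -0.87). The medians against not mated were 2.44 after normal and 3.61 after vasectomized mating. Il6, a cytokine of the acute-phase response, stood at 2.06, 189 and 11.2 (-4.07, 1 probe). The granulocyte-macrophage growth factor Csf2 stood at 0.347, 32.8 and 3.28, the first not well above background, Ccl20 at 7.36, 157 and 31.0 and Ccl2, which attracts monocytes, at 10.4, 134 and 40.8. In these the unmated pool was lowest and the vasectomized-mated pool highest. The interferon-gamma-induced Cxcl9 was above the unmated level only after vasectomized mating (2.55, 13.5 and 2.36). The neutrophil attractants Cxcl5 (4.89, 1735 and 1344) and Cxcl3 (0.935, 40.4 and 22.5, the first not well above background) and the cytokines Il1b (6.95, 500.1 and 269) and Tnf (1.89, 34.7 and 47.3) were within 2-fold between the mated pools. Il1a (0.343, 6.31 and 24.5, probes 1.96 to 2.18), Il1f9 (0.366, 40.1 and 86.9, probes 1.12 to 2.31) and the interleukin 1 receptor antagonist Il1rn (1.82, 8.26 and 69.9, probes 0.00 to 3.08) were higher after normal mating, from unmated levels not well above background.

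Among genes of NF-kB and toll-like receptor signalling, some members had the order of the cytokines and others did not. Of 25 measured, 6 were lower and 2 higher (median -0.69). Nfkbia and Nfkb2 had positive ratios within 2-fold (0.53 and 0.74). Birc3, an inhibitor of apoptosis, had levels of 144, 2901 and 497 and both probes lower (-1.49 to -2.55). Tnfaip3, which ends NF-kB signalling, stood at 43.2, 1718 and 474 and Nfkbie at 30.8, 433 and 92.8. The adhesion molecule Icam1 stood at 171, 2348 and 511, but its probes ran from -2.20 to 2.05, in opposite directions.

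Of 20 neutrophil markers compared with the unmated pool, 16 were at least 2-fold above it in both mated pools. Of 20 measured, 4 were higher and 4 lower, with a median of 0.31, and their medians against not mated were 3.13 and 2.95 after normal and vasectomized mating. The levels of the 4 defining markers S100a8, S100a9, Csf3r and Mmp8 summed to 21.4, 8629 and 5983, with the direction of S100a9 alone. S100a9, a subunit of calprotectin, stood at 11.2, 8319 and 5570.4. Its partner S100a8 (0.600, 255 and 316), Csf3r, the receptor of granulocyte colony-stimulating factor (3.17, 16.2 and 24.7), and the collagenase Mmp8 (6.46, 39.2 and 71.6) had the higher level after normal mating, and all 4 were within 2-fold between the mated pools. Mpo (20.0, 259 and 30.4) and Camp (1.01, 25.0 and 4.99), both made by granulocyte precursors, were lower after normal mating, while Retnlg (0.352, 14.9 and 67.2) and Lcn2, which binds bacterial siderophores (93.0, 929 and 7071), were higher. Lcn2 is made by epithelium as well as neutrophils. S100a8, Camp and Retnlg were not well above background in the unmated pool.

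Among 20 macrophage and monocyte markers, 9 were lower and 1 higher after normal mating (median -0.98). Adgre1, which encodes F4/80, had levels of 153, 2039 and 151 (-3.76, 1 probe), and the mannose receptor Mrc1 45.5, 298 and 52.0. In both, the unmated and normal-mated pools were alike. The defining markers did not move together: Csf1r (102, 54.0 and 53.1) and C1qa (181, 84.8 and 87.1) were within 2-fold between the mated pools, and Cd68 was higher after normal mating (67.8, 93.1 and 521). Lyz2, lysozyme of macrophages and neutrophils, was lower at both probes (3658, 11449 and 3293, probes -1.103 to -1.80). The 4 defining markers summed to 504, 2271 and 812.

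T and natural killer cell markers had the lowest median of the 41 lists, -1.87, with 12 of 17 at least 2-fold lower and 0 higher. Here the normal-mated pool was apart: the median against not mated was -2.02 after normal and -0.07 after vasectomized mating. The natural killer cell receptor Ncr1 stood at 8.03, 7.76 and 0.892, at least 8.35-fold lower, since it was not well above background after normal mating. The chemokine Xcl1 stood at 13.8, 13.1 and 1.21, the granzyme Gzma at 31.1, 45.7 and 7.65 and Klrb1c, the NK1.1 antigen, at 24.3, 23.0 and 6.05. Gzmb, Prf1 and Nkg7 differed in pattern, with both mated pools below the unmated one, for example 43.1, 7.503 and 3.92 for Gzmb. The T cell receptor subunits Cd3d (10.1, 29.7 and 5.36) and Cd3g (9.14, 6.31 and 1.49) were lower, while Cd3e was within 2-fold (2.81, 2.73 and 2.83).

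**Figure D4:**
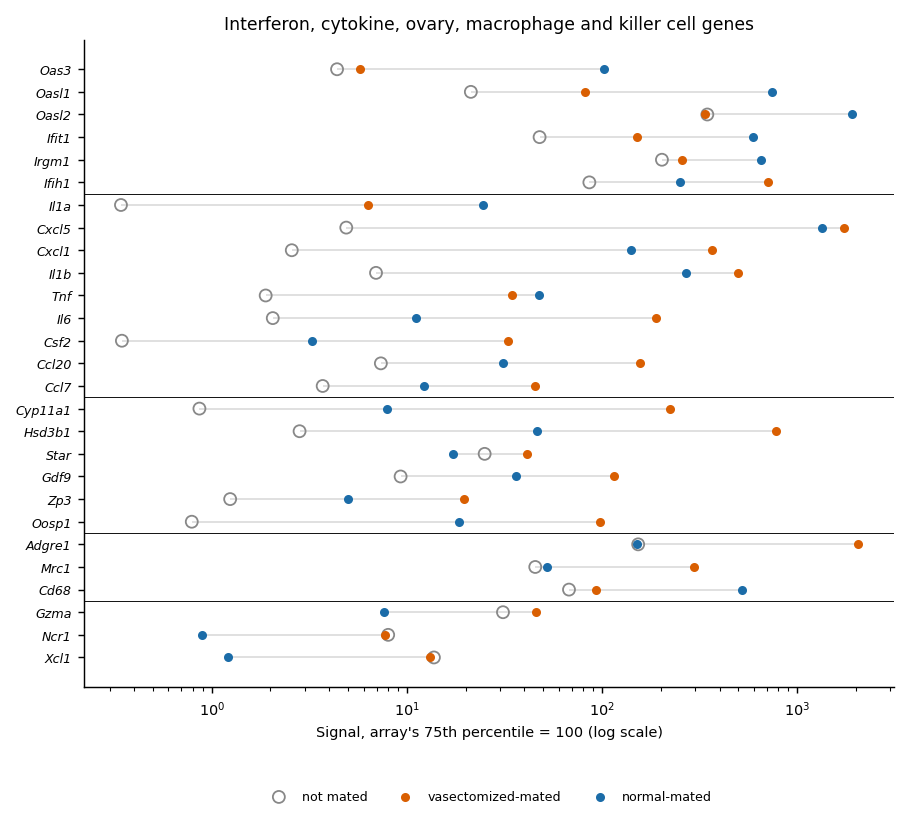
Levels (75th percentile of each array = 100, log axis) of interferon-stimulated, cytokine, ovarian, macrophage and killer cell genes, from the top block to the bottom, on the not mated (open circles), vasectomized-mated (orange) and normal-mated (blue) arrays. Levels below about 3 include genes not well above background. Oasl1 was highest after normal mating (739.5), Il6 and Cyp11a1 after vasectomized mating (189 and 224), and Ncr1 was lowest after normal mating (0.892).

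Among other immune lists, antigen presentation had 5 of 17 genes higher and 3 lower (median 0.66). The peptide transporter subunits Tap1 (41.6, 13.0 and 98.2) and Tap2 (55.9, 29.6 and 119.9) and the class I gene H2-D1 (3369, 2602 and 7999) were higher after normal mating, with class I probes open to cross-binding between similar genes, and the class II chaperone H2-DMb1 lower (138, 955 and 222). Complement had 1 of 18 genes higher and 7 lower, and its median of -0.62 came level with that of all genes when the median over probes was used. Mast cell and eosinophil markers had 5 of 9 lower, led by the eotaxin receptor Ccr3 (1.85, 23.6 and 1.16, 1 probe), and the mast cell proteases Mcpt4 (62.3, 20.0 and 7.68, probes -0.93 to -1.38) and Cma1 (123, 48.7 and 19.8, probes -0.80 to -1.30) were below the unmated level in both mated pools. Of 9 B and plasma cell markers, 3 were lower, among them Jchain.

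Of 26 secreted defence proteins compared with the unmated pool, 18 were at least 2-fold above it in both mated pools, with medians of 2.42 after normal and 2.59 after vasectomized mating. Between the mated pools, 7 of 29 were higher after normal mating and 5 lower. The iron-binding lactoferrin Ltf stood at 9629.8, 5788 and 22509 (both probes higher, 1.96 to 3.07), Pglyrp1, which binds bacterial cell walls, at 264, 996 and 3425, and the chitinase-like Chil1 at 1.76, 369 and 1379. On the other side were the beta-defensin Defb14 (20.8, 628 and 163) and lysozyme Lyz1 (492, 1632 and 423). Both mated pools were above the unmated one in Pglyrp1, Chil1 and Defb14, and only the normal-mated pool in Ltf.

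Prostaglandin genes covered synthesis, receptors and transport. Of 23 measured, 9 were lower and 3 higher. Ptgs2, the inducible cyclooxygenase that makes the prostaglandin precursor, had levels of 10.1, 1395 and 222, 6.30-fold lower after normal than after vasectomized mating at concordant probes (-2.56 to -2.65, chr1:150033228-150033287 in mm7). Both mated pools were above the unmated one. The prostacyclin receptor Ptgir (34.6, 151 and 16.6) was lower, with probes from -0.53 to -3.18. The prostaglandin importer Slco2a1 was low in the vasectomized-mated pool (672, 94.0 and 358, probes 1.93 to 2.13), and Pla2g2e, a secreted phospholipase, was high after normal mating (2.78, 81.0 and 746, 1 probe).

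Epithelial genes were more often higher after normal mating. Of 25 junction genes, 15 were higher by 2-fold or more, against 3 lower (median 1.14). Jup, plakoglobin of desmosomes and adherens junctions, had levels of 86.9, 6.67 and 77.6 (3.54, 1 probe), and its partner Pkp3 723, 222 and 1043. In both genes the vasectomized-mated pool was low and the others similar. The tight junction genes Cldn2 (39.8, 24.2 and 158), Cldn4 (88.1, 145 and 427) and Tjp3 (797, 520.1 and 2116) were instead highest after normal mating. Cldn8 (147, 367 and 85.0) and Cldn1 (15.1, 67.4 and 17.4, probes -1.95 to 0.84) were lower on their brightest probe. The desmosomal Dsp had 4 probes from 0.00 to 2.28, so its size depends on the probe.

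Oviduct secretory epithelium had 8 of 16 genes higher and 0 lower (median 1.01). The keratins Krt7 (5467, 3217 and 8849.8, probes 1.46 to 1.82) and Krt19 (8351, 2403 and 13477), the adhesion molecule Epcam (684, 487 and 2154) and the Müllerian epithelial transcription factor Pax8 (84.0, 6.19 and 44.4) were among them. Epcam was highest after normal mating, and Pax8 lowest in the vasectomized-mated pool. Ovgp1, the oviduct-specific glycoprotein that defines secretory cells, was within 2-fold on its brightest probe (26795, 36356 and 32162), and its probes ran from -0.18 to 2.68. The 4 defining markers of the secretory cell summed to 33030.1, 40066 and 43211.

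Uterine epithelium and glands had 11 of 21 genes higher and 2 lower (median 1.203). The small proline-rich genes of the surface epithelium, Sprr2d (2.41, 1811 and 6595), Sprr2e (62.6, 988 and 4439) and Sprr2b (127, 1271 and 5712), were highest after normal mating, and as near-identical copies they may share signal. Klf5, a transcription factor of the luminal epithelium, stood at 752, 136 and 742 (probes 0.95 to 2.45, of which the lower is under 2-fold) and Msx1 at 691, 97.8 and 474 (probes 1.499 to 2.28). The gland proteases went far below the unmated level in both mated pools: Prss29 stood at 8225, 124 and 352, and Prss28 at 5581, 0.849 and 9.08, of which the vasectomized-mated level was not well above background. Defining uterine markers summed to 14854, 1281 and 2035, a fall that the proteases carry, while the gland transcription factor Foxa2 was above the unmated level in both mated pools (296, 1019.6 and 931). The part of the uterus or oviduct taken with each pool was not tested.

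Ciliated epithelium was mixed, with 7 of 21 genes higher, 3 lower and a median of 0.46. Foxj1, the transcription factor of motile cilia, was above the unmated level in both mated pools and within 2-fold between them (333, 797 and 1221). Ccdc39 (21.7, 265 and 54.9) and Ccdc40 (97.4, 30.3 and 241), whose products form a ruler along the axoneme, were called in opposite directions, each on 1 probe. Spag16 was higher at both probes (21.4, 19.1 and 89.0, 1.21 to 2.22), as was Tekt1.

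**Figure D5:**
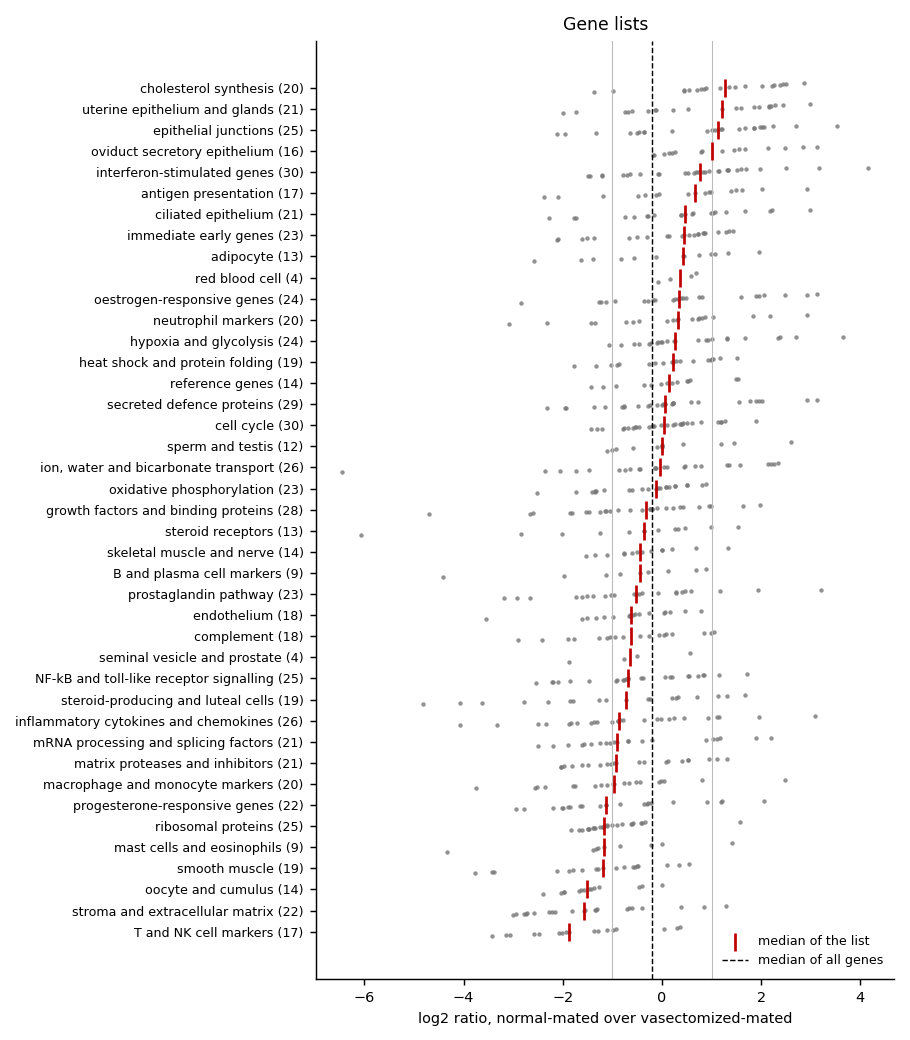
Log2 ratio of the normal-mated over the vasectomized-mated array (horizontal) for the measured members of 41 gene lists (grey points, number of genes in brackets), with the median of each list (red) and of all genes (dashed, -0.20). Grey lines mark 2-fold. List medians run from -1.87 for T and NK cells to 1.26 for cholesterol synthesis, and with spike-in scaling the median of all genes would lie at 1.88.

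Stroma and extracellular matrix lay at the other end. Of 22 genes, 15 were at least 2-fold lower after normal mating and 1 higher (median -1.56). In 7 of the genes called the unmated level was near the normal-mated level only, and in 7 near the vasectomized-mated level only. Postn, periostin of the matrix, was of the first kind (1332, 8039.7 and 1007, probes -2.75 to -3.00), as were the collagen gene Col3a1 (5974, 30461 and 5101, probes -1.31 to -3.65) and Lum, lumican (3004, 10484 and 2348). The homeobox genes Hoxa10 (454, 472 and 61.4) and Hoxa11 (626, 375 and 54.6), which pattern the uterus, were of the second kind, with the normal-mated pool low. Fibronectin, Fn1, was higher (335, 59.0 and 145, probes 0.82 to 2.02). Defining stromal markers summed to 21360.3, 48687 and 16667. Of these 4 markers Col1a1, Col3a1 and Pdgfra were lower by 2-fold or more and Dcn was within 2-fold on its brightest probe (11239, 12926 and 9788, probes -0.40 to -1.71). The part of tissue makeup was not tested.

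In smooth muscle, 10 of 19 genes were lower and 0 higher. Tagln, transgelin, was high in the vasectomized-mated pool at both probes (18880.5, 91489 and 21136, -2.11 to -2.56), and Lmod1, which nucleates actin filaments, stood at 1089, 7886 and 575. The contractile genes Myh11 (2546, 980.4 and 688) and Des (1122, 536 and 578) were within 2-fold between the mated pools. Acta2, smooth muscle actin, stood at 11917, 8447 and 5625 and had 5 probes from -3.69 to 0.99. The 5 defining markers summed to 35962, 102261 and 29054. On the brightest probes, Tagln alone gives the high vasectomized-mated sum. Acta2, Actg2 (1496, 808 and 1027), Des and Myh11 were below their unmated level in both mated pools on these probes. The probes of Acta2 differed in the place of the unmated level, and its 3′-most probe gave -3.60 and its 5′-most 0.99. Endothelial genes had 5 of 18 lower, among them the growth factor receptor Kdr (185, 162 and 57.1). Cdh5, the cadherin of vessels, stood at 231, 1254 and 106 on its brightest probe but ran from -3.56 to 0.28.

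Several genes of ovarian steroid synthesis had their highest level in the vasectomized-mated pool, while others of their list did not. Of 19 genes of steroid-producing cells, 9 were lower after normal mating and 3 higher. Hsd3b1, which makes progesterone from pregnenolone, had levels of 2.82, 780.2 and 46.5 (-4.07, 1 probe) and Hsd17b1, which makes oestradiol, 2.94, 31.8 and 2.56. The inhibin subunit Inha (9.57, 53.1 and 10.9, probes -1.41 to -2.29) and Fdx1, the electron donor of Cyp11a1 (730.5, 2982 and 819, probes -1.86 to -2.67), were at their unmated level after normal mating. Star, which moves cholesterol into mitochondria, was at 25.0, 41.3 and 17.2 (probes -0.19 to -1.26). The higher genes included Nr5a1 (9.21, 4.93 and 12.2), a steroidogenic transcription factor, and Insl3 (51.2, 52.6 and 115), a hormone of the relaxin family. The levels of Star, Cyp11a1 and Hsd3b1 summed to 28.7, 1045 and 71.5.

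Of 14 oocyte and cumulus genes measured, 11 were lower and 0 higher (median -1.51). The oocyte-secreted Oosp1 stood at 0.791, 97.4 and 18.5 (probes -2.40 to -2.48), the growth factor Gdf9 at 9.29, 116 and 36.4 and the zona pellucida gene Zp3 at 1.24, 19.6 and 5.02 (probes -1.97 to -2.23). These 3 were highest in the vasectomized-mated pool and next in the normal-mated one, and Oosp1 and Zp3 were not well above background without mating. Genes of the cumulus list differed in order: Has2, which makes hyaluronan, was highest without mating (31.4, 13.4 and 3.42), and Tnfaip6, which binds it, was lowest after normal mating (29.2, 89.0 and 21.7). Over 10 genes compared with the unmated pool the medians were 1.76 after normal and 2.90 after vasectomized mating. The 4 defining oocyte markers summed to 11.7, 235 and 61.7, with 1, 4 and 4 of them well above background. The remaining marker, Bmp15, was within 2-fold between the mated pools (0.338, 2.33 and 1.77, the first not well above background). Whether ovary, eggs or their surrounding cells entered the pools was not tested.

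Among genes responsive to progesterone, 12 of 22 were lower and 3 higher (median -1.13). They included Hoxa10 and Hoxa11, the activin-binding Fst (34.4, 98.3 and 21.5), the nuclear receptor Nr2f2 (792, 2499 and 619, all 3 probes lower, -1.52 to -2.01) and the cell cycle inhibitor Cdkn1c (648, 1425 and 396). Among 24 oestrogen-responsive genes, 7 were higher and 4 lower, and the higher ones (Muc1, Lcn2, Krt19, Gjb2, Ltf, Padi1 and Wnt7a) are known from epithelium. The lower ones included the oestrogen receptor Esr1, with opposite probes (1052, 4078 and 567, -2.85 to 2.25), and Igf1 (510.4, 656 and 302, probes -0.37 to -1.12). Of 13 steroid receptors and cofactors 4 were lower, led by the orphan receptor Nr5a2 (6.503, 177 and 2.62, -6.07, 1 probe).

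Growth factors had 11 of 28 genes lower and 2 higher. Fgf2 stood at 4.86, 90.0 and 3.45 (-4.71, 1 probe), and Hgf, a stromal factor that acts on epithelium, at 31.9, 57.7 and 9.55 (probes -2.44 to -2.60). Matrix proteases and their inhibitors had 9 of 21 lower, such as Timp3 (1507, 1286 and 325), and the urokinase receptor Plaur was higher at both probes (49.9, 122 and 302, 1.31 to 2.06). Among 26 transport genes 7 were higher and 5 lower. The chloride transporter Slc26a9 was highest after normal mating (20.7, 73.1 and 371). The bicarbonate cotransporter Slc4a7 had the most negative ratio of all named genes measured on both mated arrays (34.0, 4574 and 52.5, -6.44, 1 probe).

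Cholesterol synthesis had the highest median of the 41 lists, 1.26, with 11 of 20 genes higher and 1 lower. The median against not mated was 1.32 after normal and -0.59 after vasectomized mating. Cyp51, the lanosterol demethylase, was higher at all 3 probes (29.5, 19.6 and 91.5, 1.80 to 2.78), and Mvk, mevalonate kinase, at both (32.4, 10.2 and 53.3, 1.68 to 2.38). Squalene epoxidase, Sqle, stood at 171, 111 and 529 and Msmo1 at 465, 325 and 1319, both highest after normal mating. Fdps (157, 84.7 and 482) and Fdft1 (204, 55.0 and 402) were higher on their brightest probe but ran down to 0.18 and -0.38 on others.

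Of 24 hypoxia and glycolysis genes, 13 were at least 2-fold above the unmated level in both mated pools (medians 1.47 and 1.105 after normal and vasectomized mating), and 8 of 24 were higher and 1 lower in the first. The carbonic anhydrase Car9 stood at 10.95, 45.9 and 232, Egln3, an oxygen-sensing hydroxylase, at 23.4, 666 and 2117, and Egln1, of the same family, was higher at both probes (223, 140.1 and 349, 1.32 to 2.87). Pgk1, a glycolytic enzyme, did not reach 2-fold between the mated pools (2649, 13617 and 11752). Immediate early genes had 4 of 23 higher and 5 lower: Junb was lower at both probes (1958, 18526 and 4324, -1.93 to -2.10) and Fos higher (51.6, 78.7 and 172). Among 19 heat shock genes, Hsp90ab1 was low in the vasectomized-mated pool at both probes (5604, 1945 and 5575, 1.52 to 2.05), as was Hspa1a at all 4 (488, 184 and 411, 1.16 to 2.34), and the list had 4 higher and 3 lower. Cell cycle genes had 5 of 30 higher and 3 lower, with a median of 0.04.

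Housekeeping lists differed in how far they departed from the shares over all genes. Of 25 ribosomal protein genes, 16 were lower and 1 higher (median -1.17), and in all 17 of those called the unmated level was near the normal-mated level only. Probes for these genes may also bind their processed copies. Rps19 stood at 11508, 44405 and 12396 (probes -1.36 to -1.84) and Rps3 at 20087, 70318 and 25290.5 (probes -1.48 to -2.50), whereas Rpl4 was higher (2065, 452 and 1342). Oxidative phosphorylation had 7 of 23 lower and 0 higher, for example Ndufb8 of complex I (4642, 32142 and 5608, probes -1.59 to -2.52). Splicing factors had 5 of 21 higher and 9 lower: Prpf8, the core of the spliceosome, stood at 446, 67.3 and 309 (probes 2.20 to 2.98) and Hnrnpa1 at 1982, 7675 and 1671 (4 probes from -2.20 to 1.03). Of 14 genes often used as references, 14.3% were higher and 14.3% lower, beside 14.1% and 26.8% over all genes. Actb (1642, 5836 and 2150.3, probes -0.23 to -1.44) and Rplp0 (probes -0.90 to -1.19) were lower on their brightest probe. B2m (probes -0.47 to 1.498) and Gusb (probes -0.72 to 1.53) were higher on theirs, with another probe of opposite sign. Ppia (967, 1049 and 1120.3) and Ywhaz (299, 292 and 289) were within 2-fold on the brightest probe, with Ywhaz probes from -0.02 to 1.69. With quantile normalization Rplp0 lay 0.043 above the median of all genes.

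Transcripts known from the male tract were measured in part. Of 22 sperm and testis genes 12 were measured, with 3 higher and 2 lower and a median of 0.00. The defining sperm markers Prm1, Prm2, Tnp1 and Akap4 summed to 32.2, 40.6 and 23.4 on their brightest probes. The direction turns on the probe of Prm1, a protamine: the brightest stood at 27.9, 33.8 and 17.7, and its probes ran from -0.94 to 1.58, in opposite directions. Prm2 (0.608, 2.55 and 1.71, the first not well above background) and Tnp1 (3.25, 3.87 and 3.59) were within 2-fold between the mated pools. Spata18 was higher (4.27, 3.09 and 18.8), as was Ldhc, the lactate dehydrogenase of sperm (8.63, 14.97 and 34.3). Of 14 seminal vesicle and prostate genes 4 were measured, and Svs5 was lower (0.412, 12.0 and 3.28, the first not well above background). Sbp, the spermine-binding protein of the prostate, was above the unmated level in both mated pools and within 2-fold between them, higher after normal mating (7.99, 85.4 and 127, 0.57, 1 probe). Tgm4 (22.9, 30.8 and 18.0) and Ceacam10 (8.95, 2.87 and 2.02) were also within 2-fold. Adipocyte genes had 3 of 13 higher and 3 lower, red blood cell genes 0 and 0 of 4, and skeletal muscle and nerve genes 1 and 3 of 14.

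The largest ratios outside the genes with concordant probes rested on 1 probe or on probes that disagreed. Higher genes were led by Ntn5, a netrin (0.983, 2.81 and 55.9, the first not well above background, 4.31), Alox15, a lipoxygenase (125, 18.6 and 312, 4.07), Lad1, of the epithelial basement membrane (205, 10.47 and 176, 4.07), and Prpf19 (334, 23.6 and 331). Ntn5 was high after normal mating only, whereas Lad1, Prpf19 and Mvp, the major vault protein (501, 41.8 and 538), were low after vasectomized mating only. A2ml1, a protease inhibitor of epithelia, stood at 310.0, 230.1 and 2944 and Eno1, enolase, at 90.8, 20.7 and 260.1. Lower genes after Slc4a7 and Nr5a2 were Dct (0.901, 88.5 and 1.78, the first not well above background), Tmsb15a (20.9, 63.8 and 1.31) and Col24a1 (3.59, 50.1 and 1.40, probes -0.86 to -5.16). In Myo1e the brightest probe gave -4.72 and another 1.92.

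Bounds gave further genes detected in 1 mated pool. Cst12, of the cystatin family, was at least 80.5-fold lower after normal mating (0.738, 74.9 and 0.873), Ccdc83 at least 77.0-fold, the serine protease-like Prss35 at least 54.7-fold and Hao2 at least 45.4-fold. Prss35 was well above background in the unmated pool (2.27), and the other genes were not. In the other direction Cyp2e1 was at least 10.7-fold higher (25.3, 1.30 and 21.1), Ston2 at least 9.21-fold on 1 of its 2 probes (the other gave 0.18), the mRNA exporter Nxf1 at least 8.94-fold, Vps8 at least 8.74-fold and the Wnt inhibitor Wif1 at least 7.62-fold (33.2, 0.564 and 15.01). On the probes given, the vasectomized-mated array alone had no signal well above background for these genes.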

How the data were processed

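Total RNA of the utero-tubular junction, 1 pool of 10 females a group, was labelled with Cy3 and hybridised to Agilent mouse arrays, per the labels. The deposited intensity values are processed signals of Agilent Feature Extraction, corrected for background and spatial trend but carrying no scaling from one array to the next, per the file headers. The headers name version 10.5.1.1 and build mm7, and the submitters' processing notes version 9.5.3. Each deposited intensity was turned into a log2 value here, minus the 75th percentile of each array over non-control probes, in R 4.3.3 (limma 3.58.1; package data.table, version 1.17.8) and Python 3.11.15 (numpy 2.4.6, pandas 2.3.3, matplotlib 3.10.9). No spot was saturated, and 48 of 41174 probes with an outlier flag were left out. The SD of log2 signal over replicate spots of a probe was 0.0573, 0.0644 and 0.0541 on the not mated, vasectomized-mated and normal-mated arrays, which leaves out animals. The number of arrays, 1 a group, limits the precision.

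Probes were named through RefSeq (GRCm38.p6): 22951 by accession, 6659 by current symbol, 3109 by older synonym, and 8455 under their file name. A gene took the value of its brightest probe among those well above background on 1 or both mated arrays. A bound sets the brighter array against the lowest signal well above background on the dimmer one, or the dim probe's own if higher. Named genes were, a direction, the 15 with the largest least ratio among genes whose probes all agreed, the 10 largest others that kept 2-fold with normexp and quantile normalization, the 5 largest bounds, up to 4 members of each of 41 lists (746 genes measured), Ovgp1 and reference genes. Further list members and examples were named after their values were seen. The comparison, members and lists were chosen with earlier results of these data known. The counting was tested on simulated data. A few genes are not reported here.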

Additional observations from a re-analysis of the deposited data

How the results depend on the processing

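The number of genes higher in the normal-mated pool (2791) was 1704 with normexp background correction, 15396 with spike-in scaling and 1233 at 3-fold. The number lower (5313) was 250 with spike-in scaling, 11125 without a filter on dim probes and 2684 at 3-fold. Genes with every probe higher (446) were 197 with normexp, 4628 with spike-in scaling and 159 at 3-fold, and genes with every probe lower (555) were 7 with spike-in scaling, 1164 without the filter and 194 at 3-fold. Quantile and cyclic loess normalization, the percentile over detected probes, probes measured on both arrays only and the median over probes kept all 4 counts within 1.5 times. Relative to the median of all genes, list medians changed side for B and plasma cells (0.17), endothelium (0.009), prostaglandins (0.13) and skeletal muscle and nerve (0.13) without the filter, and for complement (0.0005) and matrix proteases (0.0451) with the median over probes. Rplp0 changed side with quantile normalization (0.0434). Changes of size were more common than changes of side. Over the settings, 193 values of list medians were counted as moved, 6 as reversed and 129 as the same. For log2 ratios of single genes, also relative to the median of all genes, these counts were 1191, 1 and 536. Of 197 named genes called, 167 stayed on the same side of 2-fold with normexp, quantile, cyclic loess and detected-probe scaling. With spike-in scaling, 46 of the 116 named genes called lower turned sign. Where a value changed, the cause was not tested. No paired analysis was possible because each group is 1 array, and no array could be left out. Replicate spots cover hybridisation and scanning only, signal below background limits the dim genes, and the spread between animals is unknown.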
